A study of Heliconius erato cyrbia and Heliconius erato demophoon with 32 samples.

Results

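A set of 23 annotated loci of the butterfly Heliconius erato was described, chosen for stronger late pupal transcript levels in the wings of H. e. demophoon than in those of H. e. cyrbia. Levels were given as CPM, the count of a locus divided by the total count of its library and multiplied by 1000000. A locus was selected on 3 limits that had to hold in both wing regions sampled: a demophoon mean of at least 5 CPM at 70% of pupal development, at least 4 times the cyrbia mean at 70%, and at least 4 times the demophoon mean at 50%. Loci under 0.2 CPM in all cyrbia groups were left out, which removed 2. The 23 loci were found among 13055 annotated loci, of 24118 loci in the table. They are a subset of 486 annotated loci that met the demophoon limits alone, and the other 463 of these serve as a comparison below. With the subspecies exchanged, the same limits held for 34 loci.

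RNA had been sequenced from pupal wings of 16 animals from captive populations kept at 25 °C and fed on Passiflora biflora. The study asked which genes differ between H. e. demophoon, whose wings lack iridescence, and the iridescent blue H. e. cyrbia, at 50% and 70% of pupal development. Each animal gave 2 libraries, one from the main wing (the forewing together with the posterior hindwing) and one from the anterior hindwing, a region with a different type of scale. There were 8 groups of 4 animals, so 32 libraries. By the numbers in the labels, demophoon animals 13 to 16 were sampled at 70% (15 was male and the others female) and animals 5 to 8 at 50% (8 was male and the others female). Cyrbia animals 9 to 12 were sampled at 70% (all 4 male) and animals 1 to 4 at 50% (1 and 4 male, 2 and 3 female). The labels name no treatment. Animals of a group were separate individuals, and each animal's own wing regions are not independent of each other.

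A butterfly wing scale is the cuticle of a single cell. In the pupa the scale cell grows a flat outgrowth in which bundles of actin filaments prefigure the lengthwise ridges, then lays down chitin and cuticle proteins, and late in pupal life makes or takes up its pigment. In iridescent Heliconius scales the blue is a structural colour, reflected by layers in the ridges. The interval between the sampled stages falls in the time in which the scale cuticle matures and colour appears. The locus identifiers are paired with gene model numbers but not with gene names, and none (0) matched the gene table of the reference assembly. No role, name or sequence is therefore given for any of the 23 loci, and the labelled tissue could not be checked against marker genes.

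Library totals ran from 9330883 to 68986011 counts. At 70% they were 23617920 to 68986011 in demophoon and 12966760 to 51690624 in cyrbia. A stage score of 332 other annotated loci higher at 70% minus 246 lower at 70% (at least 4 times in both subspecies and regions, on the log2(CPM + 0.5) scale) was 2.91 to 3.08 in the demophoon animals at 70%, against 2.60 to 3.24 in the cyrbia animals. The median log2 difference of demophoon over cyrbia at 70% was 0.03 over the first set and −0.06 over the second. All cyrbia animals at 70% were male and 3 of 4 demophoon animals were female, so subspecies and sex cannot be told apart for a locus that differs between the sexes. The library numbers in the labels also follow stage, so order and stage cannot be told apart. The libraries are from whole tissue, in which more cells of one kind and more RNA per cell cannot be told apart. CPM is not corrected for locus length, so levels were compared between animals within a locus and not between loci.

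The values that chose the loci are given as a description, with no test. Taken over both regions, the demophoon mean at 70% was 4.37 (MSTRG.10966) to 173 times (MSTRG.21177) the cyrbia mean. On the log2(mean CPM + 0.5) scale the median of demophoon over cyrbia at 70% was 3.27 over the 23 loci and −0.01 over the 9822 annotated loci tested, and the median of 70% over 50% in demophoon was 4.07 over the 23 loci and −0.09 over the annotated loci. In 10 of the 23 loci every demophoon animal was above every cyrbia animal at 70%, where 7.52% of the annotated loci tested had such a gap in that direction. In 15 of 23 every demophoon animal at 70% was above every demophoon animal at 50%, against a background of 17.5%. The rule used both contrasts, and nothing is read from these counts. Closest to the limits on the inside were MSTRG.10966, with a demophoon mean of 33.6 CPM against 8.24 CPM in cyrbia in the anterior hindwing at 70%, MSTRG.8002 with 104 against 24.4 CPM and MSTRG.14849 with 52.9 against 12.0 CPM. Closest on the outside was MSTRG.1337, with 6.88 against 1.79 CPM for the main wing and 8.51 against 2.16 CPM for the anterior hindwing. MSTRG.13009 missed by its main wing ratio, with 6.15 CPM in demophoon against 1.64 CPM in cyrbia, and by its anterior hindwing level in demophoon, 4.99 CPM. MSTRG.16623 missed by its anterior hindwing level in demophoon, 4.67 CPM.

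**Figure D1:**
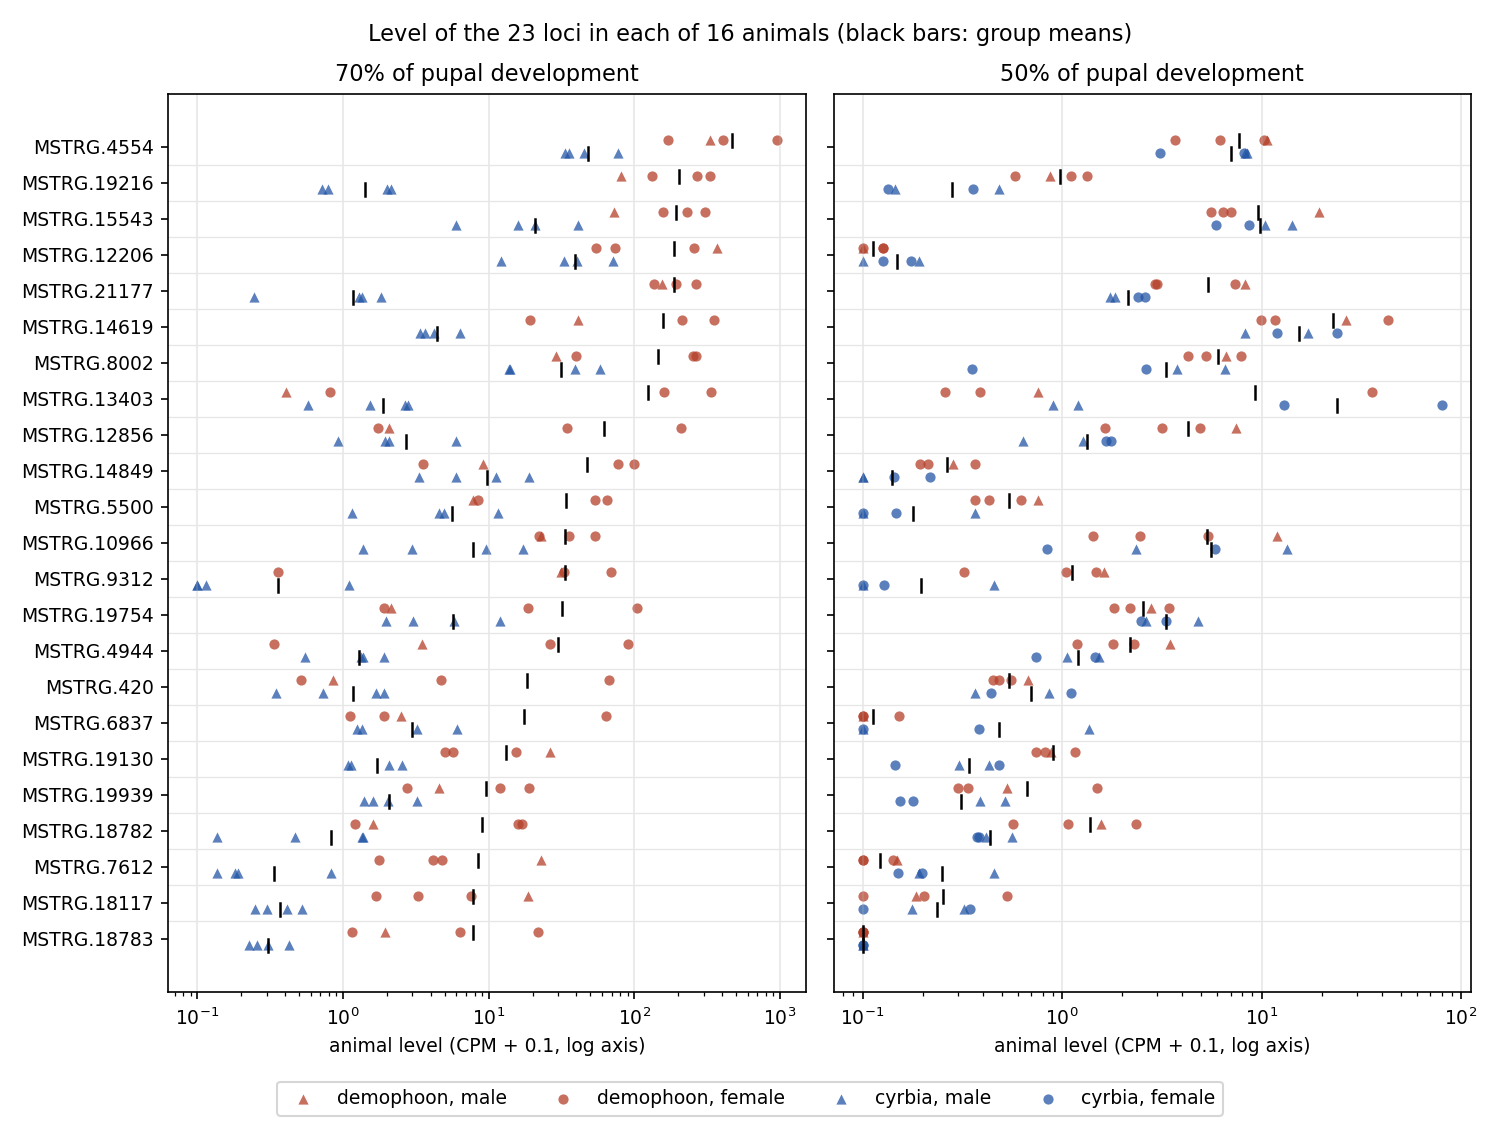
Level of each of the 23 loci in every animal at 70% (left) and 50% (right) of pupal development, as the mean CPM of an animal's wing regions plus 0.1 on a log axis, with demophoon in red above cyrbia in blue, males as triangles, females as circles and black bars for the mean of 4 animals. At 70% the demophoon mean lies to the right of the cyrbia mean at each locus, but in 13 of the 23 loci at least 1 demophoon animal falls within or below the cyrbia animals.

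The first question was how these loci behaved in cyrbia between 50% and 70%. The cyrbia libraries at 70% entered the rule as a ceiling, so the cyrbia stage course is described without a test. The cyrbia mean was at least 4 times higher at 70% in both regions in 9 loci, higher in both regions but by less in 9, and lower in both regions in 3. In 1 locus the regions differed in direction, and in 1 there was no count at 50%. On the log2(mean CPM + 0.5) scale, cyrbia 70% over 50% had a median of 0.71 over the 23 loci and ran from −3.40 to 6.17, while the median was −0.05 over all annotated loci tested and 3.10 over the 486 loci with the demophoon stage difference. Animals of the stages did not overlap in 9 of 23 loci in the direction of 70%, beside 16.2% of annotated loci, and in 1 locus in the direction of 50%, beside 14.4%. The 23 loci were chosen for a higher demophoon level at 70%, so all annotated loci are an unlike set here. On the log2(mean CPM + 0.5) scale, 21.7% of the 23 loci were at least 4 times higher at 70% in cyrbia, beside 75.9% of the 486 loci. The cyrbia ceiling of the rule lowers the share of the 23.

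**Figure D2:**
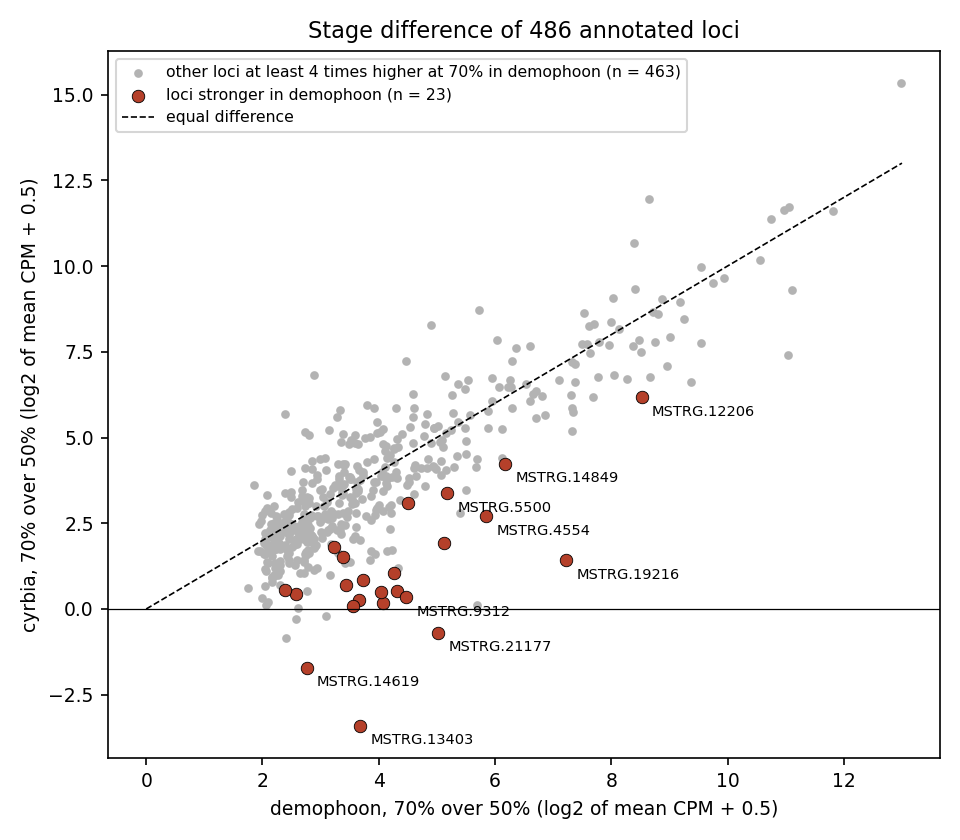
Stage difference in cyrbia (vertical) against that in demophoon (horizontal) for 486 annotated loci, each as 70% over 50% of the mean of 8 libraries on the log2(CPM + 0.5) scale, with the 23 loci in red, the other 463 in grey and a dashed line of equal difference. The red points lie below the dashed line because they were chosen for a low cyrbia level at 70%, and they spread from 6.17 for MSTRG.12206 to −3.40 for MSTRG.13403 on the cyrbia axis.

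In a first group of 9 loci the cyrbia mean too was at least 4 times higher at 70% in both regions. The size of the stage difference could be unlike in the subspecies. At MSTRG.19216 it was 233 times in demophoon and 7.27 times in cyrbia, over both regions. MSTRG.12206 was all but silent in both subspecies at 50% and high in both at 70%. MSTRG.12206 had 223, 78.0, 427 and 59.2 CPM in the main wing of demophoon animals 13 to 16 at 70%, against 42.7, 12.5, 80.7 and 31.1 CPM in cyrbia animals 9 to 12. In anterior hindwing, MSTRG.12206 had 287, 68.9, 312 and 49.5 CPM in the same demophoon animals and 37.7, 11.4, 62.8 and 34.4 CPM in the cyrbia animals. Animals 13 and 15 of demophoon stood far above the others. Averaged over regions, animal 14 was just above the highest cyrbia animal and animal 16 lay within the cyrbia range. At 50% the locus had no count in the main wing of any demophoon animal and 2 counts in each of 2 anterior hindwing libraries, while cyrbia had 2 and 6 counts in 2 main wing libraries and 2 and 5 counts in 2 anterior hindwing libraries. The demophoon main wing mean was at least 1415-fold higher at 70%, taking 3 counts in each library as the floor, and the cyrbia main wing mean was 748 times higher. The edgeR estimate of cyrbia 70% over 50% in the main wing was 9.36 (SE 1.07) on the log2 scale.

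MSTRG.14849 and MSTRG.5500 had the same kind of course. MSTRG.14849 reached 70.2, 2.85, 8.30 and 85.8 CPM in the main wing of demophoon animals 13 to 16, against 2.31, 6.15, 17.2 and 3.93 CPM in cyrbia animals 9 to 12. In anterior hindwing, MSTRG.14849 reached 84.8, 3.99, 9.91 and 113 CPM in demophoon and 4.09, 16.0, 20.2 and 7.78 CPM in cyrbia. Demophoon animals 13 and 16 were far above all other animals, while 14 and 15 lay inside the cyrbia range. At 50% no library of either subspecies passed 0.313 CPM at this locus, and in cyrbia 5 of 8 libraries had no count. The cyrbia mean was 179 times higher at 70% for the main wing and 302 times for the anterior hindwing, with an edgeR log2 estimate of 7.11 (SE 1.35) in the main wing.

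MSTRG.5500 stood at 44.4, 78.5, 12.0 and 9.59 CPM in the main wing of demophoon animals 13 to 16 at 70%, against 5.09, 1.16, 12.0 and 5.69 CPM in cyrbia animals 9 to 12. In anterior hindwing, MSTRG.5500 stood at 62.7, 51.6, 3.41 and 7.06 CPM in demophoon and 3.80, 0.953, 11.1 and 4.02 CPM in cyrbia. Here the pair of high demophoon animals was 13 and 14, and animals 15 and 16 averaged less than the highest cyrbia animal, 11. The highest 50% library had 0.750 CPM in demophoon and 0.376 CPM in cyrbia, where 5 of 8 libraries had no count. The cyrbia log2 estimate of 70% over 50% was 6.29 (SE 1.10) in the main wing.

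MSTRG.4554 and MSTRG.8002 were already present at 50%. MSTRG.4554 gave 152, 454, 416 and 1090.4 CPM in the main wing of demophoon animals 13 to 16 at 70%, against 29.3, 37.0, 73.4 and 45.4 CPM in cyrbia animals 9 to 12. In anterior hindwing, MSTRG.4554 gave 187, 356, 247 and 817 CPM in demophoon, against 37.4, 34.0, 80.9 and 45.2 CPM in cyrbia. Every demophoon library was above every cyrbia library, with animal 16 the highest in both regions and animal 13 the lowest. At 50%, MSTRG.4554 was at 6.93, 4.18, 8.93 and 12.4 CPM in the main wing of demophoon animals 5 to 8 and at 8.37, 7.60, 3.68 and 7.93 CPM in that of cyrbia animals 1 to 4. In anterior hindwing, MSTRG.4554 at 50% held 5.23, 2.95, 11.5 and 8.69 CPM in demophoon and 8.41, 8.49, 2.30 and 8.35 CPM in cyrbia. The subspecies overlapped at 50%, with the female cyrbia animal 3 the lowest in both regions. The cyrbia log2 estimate of 70% over 50% was 2.62 (SE 0.48), so that the difference of 70% from 50% was present in both subspecies and the gap between them was seen at 70%.

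MSTRG.8002 measured 365, 36.7, 38.0 and 309.5 CPM in the main wing of demophoon animals 13 to 16 at 70%, against 17.7, 20.7, 51.3 and 62.1 CPM in cyrbia animals 9 to 12. In anterior hindwing, MSTRG.8002 measured 138, 42.4, 19.6 and 217 CPM in demophoon and 9.73, 7.26, 27.2 and 53.5 CPM in cyrbia. Animals 13 and 16 again carried the demophoon mean, and animals 14 and 15 lay among the cyrbia animals. At 50%, MSTRG.8002 measured 7.82, 7.18, 9.74 and 9.21 CPM in the main wing of demophoon animals 5 to 8 and 5.79, 0.178, 3.54 and 10.2 CPM in that of cyrbia animals 1 to 4. In anterior hindwing, MSTRG.8002 at 50% measured 2.55, 1.17, 5.85 and 3.85 CPM in demophoon and 1.59, 0.327, 1.52 and 2.74 CPM in cyrbia. The main wing was above the anterior hindwing in each of the 4 demophoon animals at 50% and in 3 of the 4 cyrbia animals. The cyrbia log2 estimate of 70% over 50% in the main wing was 2.80 (SE 0.95).

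MSTRG.19216 combined a large gap between the subspecies with a higher level at 70% in both. MSTRG.19216 came to 274, 96.8, 61.8 and 248 CPM in the main wing of demophoon animals 13 to 16 at 70%, against 1.93, 0.612, 0.876 and 0.290 CPM in cyrbia animals 9 to 12. In anterior hindwing, MSTRG.19216 came to 388, 169, 99.8 and 295 CPM in demophoon and 2.15, 0.624, 0.501 and 3.53 CPM in cyrbia. The lowest demophoon library, with 61.8 CPM, was far above the highest cyrbia library, with 3.53 CPM, and the male, 15, was the lowest demophoon animal. At 50%, MSTRG.19216 came to 1.41, 0, 0.905 and 0.791 CPM in the main wing of demophoon animals 5 to 8 and 0.323, 0.327, 0 and 0.0926 CPM in that of cyrbia animals 1 to 4. In anterior hindwing, MSTRG.19216 at 50% came to 1.07, 0.958, 1.12 and 0.750 CPM in demophoon and 0.445, 0.191, 0.0683 and 0 CPM in cyrbia. Averaged over its wing regions each demophoon animal was above each cyrbia animal at 50% too. The cyrbia mean was 4.99 times higher at 70% in the main wing, with a log2 estimate of 2.12 (SE 0.90).

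MSTRG.19939 was measured at 17.4, 1.82, 3.82 and 9.48 CPM in the main wing of demophoon animals 13 to 16 at 70%, against 1.16, 2.02, 2.96 and 1.24 CPM in cyrbia animals 9 to 12. In anterior hindwing, MSTRG.19939 was at 20.3, 3.49, 5.13 and 14.2 CPM in demophoon and 1.45, 1.84, 3.32 and 1.77 CPM in cyrbia. Animal 14 was the only demophoon animal within the cyrbia range. The demophoon animals at 50% ran from 0.201 to 1.40 CPM and the cyrbia animals from 0.0546 to 0.419 CPM, and the cyrbia log2 estimate of 70% over 50% was 2.84 (SE 1.21). The other loci of this group were MSTRG.19130 and MSTRG.6837. MSTRG.19130 ran from 4.89 to 26.3 CPM over the demophoon animals at 70%, against 0.991 to 2.43 CPM over the cyrbia animals, with a cyrbia log2 estimate of 2.88 (SE 0.90). MSTRG.6837 had 64.0 CPM in demophoon animal 16 but 1.02 to 2.39 CPM in the other 3, against 1.15 to 5.93 CPM in cyrbia, and its cyrbia log2 estimate of 2.93 had an SE of 1.60.

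In a second group the means of the subspecies differed in opposite directions: the mean was higher at 70% in demophoon and lower at 70% in cyrbia, in both regions. This describes means only, and at MSTRG.13403 the cyrbia direction changed when sex was added as a term. The group held 3 loci, MSTRG.21177, MSTRG.14619 and MSTRG.13403. MSTRG.21177 recorded 157, 154, 192 and 275 CPM in the main wing of demophoon animals 13 to 16 at 70%, against 1.00, 0.918, 2.52 and 0.290 CPM in cyrbia animals 9 to 12. In anterior hindwing, MSTRG.21177 recorded 231, 118, 116 and 254 CPM in demophoon and 1.52, 1.45, 0.940 and 0 CPM in cyrbia. It was the most even of the 23 loci among the demophoon animals at 70%, with a coefficient of variation (CV, the SD over the mean of 4 animals) of 30.5%, and the lowest demophoon library, with 116 CPM, was far above the highest cyrbia library, with 2.52 CPM. At 50%, MSTRG.21177 recorded 2.86, 3.43, 3.03 and 8.33 CPM in the main wing of demophoon animals 5 to 8 and 2.26, 3.71, 2.27 and 2.66 CPM in that of cyrbia animals 1 to 4. In anterior hindwing, MSTRG.21177 at 50% recorded 2.82, 11.1, 2.74 and 7.94 CPM in demophoon and 1.22, 1.28, 2.34 and 0.641 CPM in cyrbia. Each demophoon animal was above each cyrbia animal at 50% when its regions were averaged, and the stages overlapped in cyrbia. The cyrbia mean at 70% was 0.434 of that at 50% for the main wing and 0.711 of it for the anterior hindwing, and the main wing log2 estimate was −1.40 (SE 0.45).

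MSTRG.14619 counted 261, 314, 61.0 and 18.6 CPM in the main wing of demophoon animals 13 to 16 at 70%, against 3.47, 7.10, 4.96 and 4.86 CPM in cyrbia animals 9 to 12. In anterior hindwing, MSTRG.14619 counted 447, 112, 21.1 and 19.5 CPM in demophoon and 3.05, 5.46, 2.19 and 3.41 CPM in cyrbia. Animals 13 and 14 were high and animals 15 and 16 much lower, yet every demophoon library was above every cyrbia library. At 50%, MSTRG.14619 counted 12.9, 11.8, 44.8 and 29.3 CPM in the main wing of demophoon animals 5 to 8 and 6.73, 9.35, 26.5 and 17.1 CPM in that of cyrbia animals 1 to 4. In anterior hindwing, MSTRG.14619 at 50% counted 6.92, 11.5, 40.8 and 23.7 CPM in demophoon and 9.58, 14.4, 21.3 and 17.0 CPM in cyrbia. At 50% the subspecies overlapped. It was the one locus of the 23 in which every cyrbia animal at 50% was above every cyrbia animal at 70%, and the cyrbia log2 estimate of 70% over 50% was −1.70 (SE 0.76). The demophoon animals did not separate by stage here: animal 16 at 70% averaged 19.0 CPM, within the 9.89 to 42.8 CPM of the demophoon animals at 50%.

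MSTRG.13403 was on in some animals and nearly off in others. MSTRG.13403 showed 268, 0.728, 0.361 and 167 CPM in the main wing of demophoon animals 13 to 16 at 70%, against 0, 3.89, 3.10 and 0.871 CPM in cyrbia animals 9 to 12. In anterior hindwing, MSTRG.13403 showed 402, 0.710, 0.251 and 153 CPM in demophoon and 0.950, 1.25, 2.32 and 2.00 CPM in cyrbia. Animals 13 and 16 had between 153 and 402 CPM, and animals 14 and 15 had between 0.251 and 0.728 CPM, below all cyrbia libraries but that of the main wing of animal 9. At 50%, MSTRG.13403 showed 0.413, 0, 31.6 and 0.735 CPM in the main wing of demophoon animals 5 to 8 and 1.42, 3.59, 31.1 and 1.27 CPM in that of cyrbia animals 1 to 4. In anterior hindwing, MSTRG.13403 at 50% showed 0.159, 0.319, 40.0 and 0.581 CPM in demophoon and 0.796, 22.2, 129.6 and 0.331 CPM in cyrbia. One animal of each subspecies stood far above the rest at 50%, the females 7 and 3, and the female cyrbia animal 2 was the next. The cyrbia log2 estimate of 70% over 50% was −2.46 with an SE of 1.92, and it was 0.84 (SE 1.76) when sex was added as a term, so no direction can be given for this locus. All the animals above 10 CPM at either stage were female, and the 4 cyrbia animals at 70% were male.

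The remaining loci differed little between the stages in cyrbia or could not be placed. MSTRG.15543 yielded 238, 169.9, 71.2 and 226 CPM in the main wing of demophoon animals 13 to 16 at 70%, against 22.5, 7.23, 15.9 and 26.3 CPM in cyrbia animals 9 to 12. In anterior hindwing, MSTRG.15543 yielded 377, 143, 72.7 and 236 CPM in demophoon and 18.7, 4.54, 15.7 and 56.0 CPM in cyrbia. Every demophoon library was above every cyrbia library at 70%, and the male, 15, was the lowest demophoon animal. At 50%, MSTRG.15543 yielded 4.58, 6.64, 4.53 and 15.3 CPM in the main wing of demophoon animals 5 to 8 and 11.2, 9.05, 5.29 and 11.0 CPM in that of cyrbia animals 1 to 4. In anterior hindwing, MSTRG.15543 at 50% yielded 7.96, 7.21, 6.42 and 23.5 CPM in demophoon and 9.46, 8.11, 6.35 and 17.3 CPM in cyrbia. The highest demophoon animal at 50% was the male, 8, and the subspecies overlapped. The cyrbia log2 estimate of 70% over 50% was 0.89 (SE 0.50).

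MSTRG.12856 registered 135, 1.09, 2.08 and 34.0 CPM in the main wing of demophoon animals 13 to 16 at 70%, against 1.47, 1.78, 1.53 and 6.15 CPM in cyrbia animals 9 to 12. In anterior hindwing, MSTRG.12856 registered 287, 2.16, 1.83 and 35.2 CPM in demophoon and 2.19, 2.17, 0.125 and 5.53 CPM in cyrbia. Animal 13 alone made up 84.7% of the demophoon sum, and animals 14 and 15 lay within the cyrbia range. The demophoon animals at 50% ran from 1.55 to 7.37 CPM and the cyrbia animals from 0.537 to 1.67 CPM, so that demophoon animals 14 and 15 at 70% were within the demophoon range at 50%. The cyrbia log2 estimate of 70% over 50% was 1.28 (SE 1.15).

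MSTRG.10966 amounted to 17.1, 57.9, 21.5 and 37.1 CPM in the main wing of demophoon animals 13 to 16 at 70%, against 10.6, 14.9, 0.803 and 2.07 CPM in cyrbia animals 9 to 12. In anterior hindwing, MSTRG.10966 amounted to 27.2, 49.8, 24.2 and 33.4 CPM in demophoon and 8.44, 19.1, 4.95 and 0.463 CPM in cyrbia. Averaged over regions the demophoon animals were all above the cyrbia animals, which differed 13.4 times among themselves. At 50%, MSTRG.10966 amounted to 2.03, 1.07, 6.27 and 15.4 CPM in the main wing of demophoon animals 5 to 8 and 15.6, 8.02, 1.16 and 2.66 CPM in that of cyrbia animals 1 to 4. In anterior hindwing, MSTRG.10966 at 50% amounted to 2.71, 1.60, 4.33 and 8.28 CPM in demophoon and 10.9, 3.49, 0.319 and 1.83 CPM in cyrbia. The subspecies and, in cyrbia, the stages overlapped, and the main wing log2 estimate of cyrbia 70% over 50% was 0.00 (SE 0.93), with the mean 1.99 times higher at 70% in the anterior hindwing.

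MSTRG.4944 totalled 74.8, 0.273, 4.76 and 26.5 CPM in the main wing of demophoon animals 13 to 16 at 70%, against 1.54, 0.765, 1.46 and 0.580 CPM in cyrbia animals 9 to 12. In anterior hindwing, MSTRG.4944 totalled 105, 0.203, 1.97 and 26.4 CPM in demophoon and 0.927, 1.77, 2.19 and 0.318 CPM in cyrbia. Animal 13 was the highest and animal 14 was below every cyrbia animal. In cyrbia the mean at 70% was 1.97 times that at 50% for the main wing and 0.792 of it for the anterior hindwing, with log2 estimates of 0.81 (SE 1.02) and −0.30 (SE 1.13).

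MSTRG.7612 attained 3.85, 5.18, 26.2 and 1.48 CPM in the main wing of demophoon animals 13 to 16 at 70%, against 0.308, 0.0306, 0.0730 and 0.0387 CPM in cyrbia animals 9 to 12. In anterior hindwing, MSTRG.7612 attained 4.20, 4.12, 19.5 and 1.86 CPM in demophoon and 1.15, 0.131, 0 and 0.145 CPM in cyrbia. The demophoon male, 15, was far above the demophoon females, all of which were above the cyrbia animals. At 50% the animals had 0 to 0.0484 CPM in demophoon and 0.0513 to 0.354 CPM in cyrbia, and the cyrbia log2 estimate of 70% over 50% was 0.40 (SE 0.99).

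MSTRG.18783 was the only locus of the 23 with no count in any library of either subspecies at 50%. MSTRG.18783 had counts at 70% that gave 4.53, 27.7, 2.82 and 1.23 CPM in the main wing of demophoon animals 13 to 16, against 0, 0.520, 0 and 0.213 CPM in cyrbia animals 9 to 12. In anterior hindwing, MSTRG.18783 gave 7.99, 15.4, 0.862 and 0.890 CPM in demophoon and 0.317, 0.131, 0.251 and 0.203 CPM in cyrbia. Its level was at least 71.9-fold higher at 70% than at 50% in demophoon and at least 2.72-fold higher in cyrbia, with 3 counts in each library as the floor. In cyrbia 2 of the 8 libraries at 70% had no count and the others had 4 to 17 counts, so the cyrbia course of this locus is known to a few counts only.

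In the other 5 loci the cyrbia stage estimates had wide errors. The cyrbia log2 estimates of 70% over 50% in the main wing were 0.83 (SE 1.62) for MSTRG.9312, 1.22 (SE 0.94) for MSTRG.19754, 0.28 (SE 1.09) for MSTRG.420, 1.54 (SE 1.00) for MSTRG.18782 and 1.78 (SE 1.52) for MSTRG.18117. At 70%, MSTRG.9312 ran from 0.259 to 68.5 CPM over the demophoon animals, against 0 to 1.01 CPM over the cyrbia animals, of which only animal 11 had more than 1 count in a library. MSTRG.18117 ran from 1.57 to 18.7 CPM over the demophoon animals, against 0.148 to 0.424 CPM over the cyrbia animals. The demophoon animals were thus separate from the cyrbia animals at MSTRG.18117, and animal 14 fell within the cyrbia range at MSTRG.9312.

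The second question was whether the subspecies already differed at 50%. The demophoon libraries at 50% entered the rule as a ceiling, so this too is a description. On the log2(mean CPM + 0.5) scale, demophoon over cyrbia at 50% had a median of 0.30 over the 23 loci and ran from −1.32 to 1.44, beside a median of 0.02 over the annotated loci tested. The demophoon mean was higher in 14 loci and lower in 8, and no locus differed by 4 times on that scale. The added 0.5 CPM narrows differences at low levels. Without it the demophoon mean was 10.6 times the cyrbia mean at MSTRG.9312, 5.68 at MSTRG.5500, 4.84 at MSTRG.19216 and 4.04 at MSTRG.14849. The cyrbia mean was 29.6 times the demophoon mean at MSTRG.6837 and 6.63 at MSTRG.7612. All these means at 50% were at most 1.02 CPM. Each demophoon animal was above each cyrbia animal at 50% in 5 loci (MSTRG.21177, MSTRG.19216, MSTRG.19130, MSTRG.5500 and MSTRG.18782), which is 5 of 23 beside 8.5% of the annotated loci tested. The reverse held at MSTRG.7612 alone, beside 3.82%. These 5 loci were low at 50%: the demophoon animals ran from 0.266 to 0.658 CPM at MSTRG.5500 and from 2.84 to 8.14 CPM at MSTRG.21177, against 0 to 0.265 CPM and 1.65 to 2.50 CPM in the cyrbia animals.

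The third question was how even the demophoon level was between animals. The spread was wide. The number of demophoon animals above every cyrbia animal at 70% was 4 of 4 in 10 loci, 3 in 5 loci, 2 in 7 loci and 1 in MSTRG.6837. Over the 23 loci the CV among the demophoon animals at 70% had a median of 98.5% and ran from 30.5% to 180%, while it had a median of 36.2% over the other 463 loci with the demophoon stage difference. In cyrbia at 70% the medians were 68.7% and 38.9%. The rule takes a mean of 4 animals, which a single high animal can lift past the limit, so a wide demophoon spread is favoured by the choice and is given with no test.

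The highest demophoon animal made up at least 60% of the demophoon sum in 9 of the 23 loci (39.1%), beside 6.91% of the other 463, and the animals differed at least 10 times in 13 loci (56.5%), beside 10.2%. The largest shares were 92.5% in animal 16 at MSTRG.6837, 92.0% in animal 16 at MSTRG.420, 84.7% in animal 13 at MSTRG.12856 and 82.4% in animal 14 at MSTRG.19754. Without animal 16 the mean of MSTRG.6837 over the other 3 demophoon animals was 0.607 of the cyrbia mean, so the higher demophoon mean of this locus is that of 1 animal. Without the highest animal it was 1.79 times the cyrbia mean at MSTRG.420 and 1.34 times at MSTRG.19754. The widest range was at MSTRG.13403, where the highest animal was 1095 times the lowest, then MSTRG.4944 with 377 times, MSTRG.9312 with 265 times and MSTRG.420 with 162 times.

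**Figure D3:**
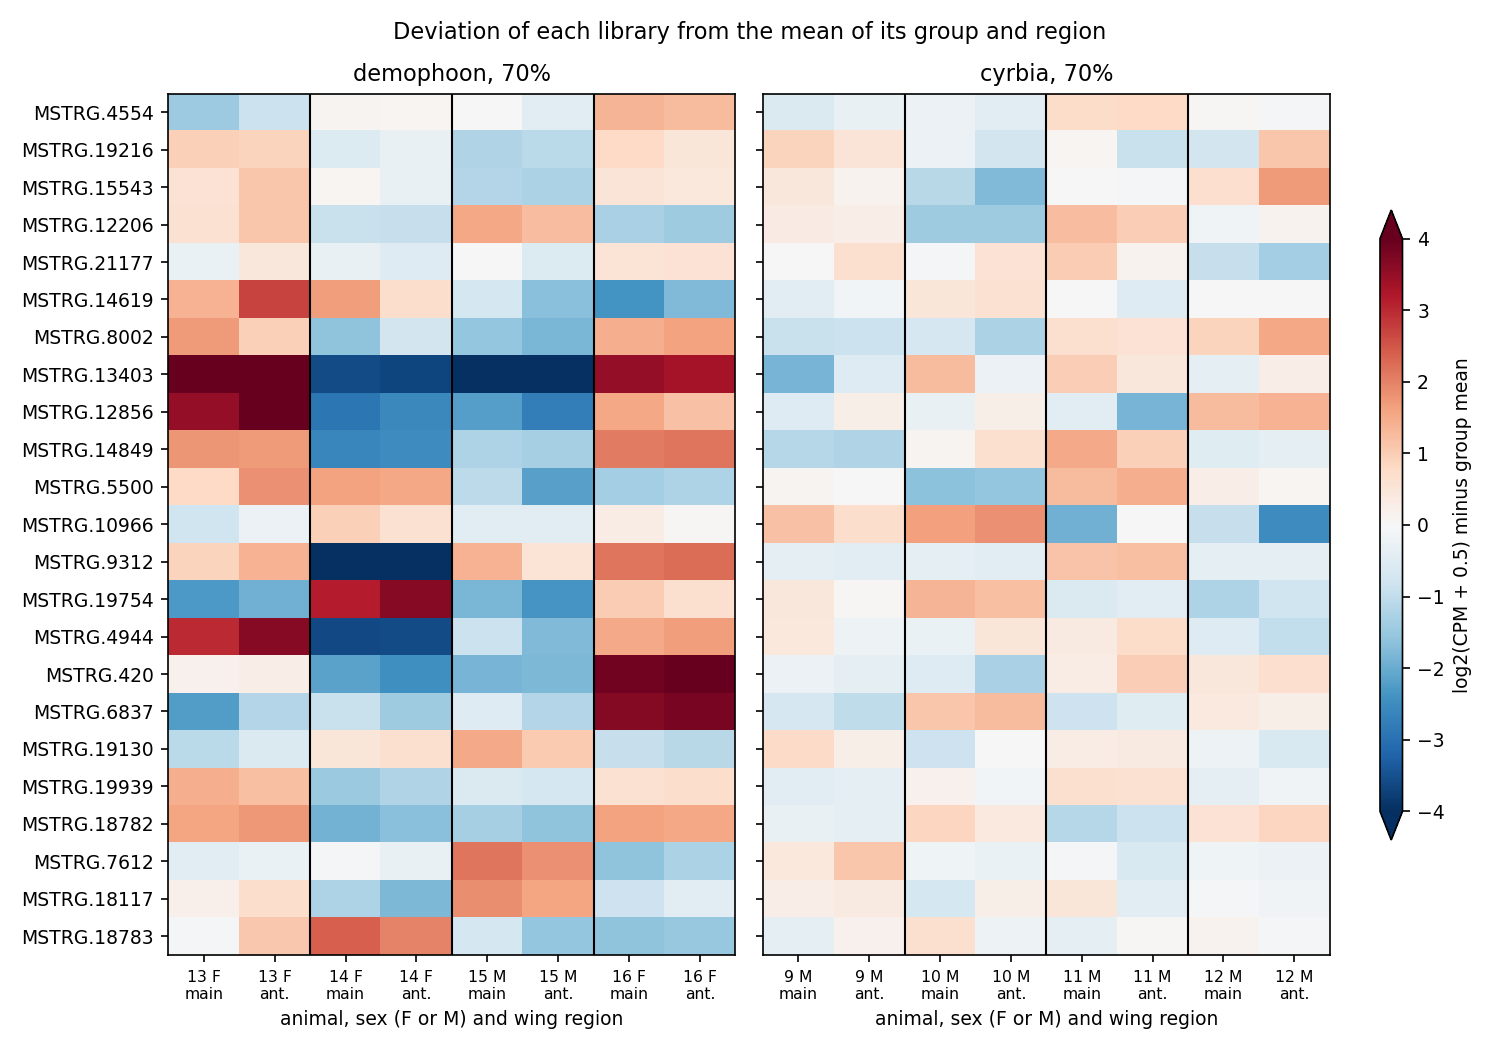
Deviation of each library at 70% from the mean of its subspecies and region, in log2(CPM + 0.5), for demophoon (left) and cyrbia (right), with loci down the page, each animal's main wing and anterior hindwing side by side, and colour from −4 (blue) to 4 (red), beyond which values take the end colour. Adjacent columns of an animal have like colours, and animals 13 and 16 had the 2 highest mean levels in 12 of the 23 loci.

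The high animals were often the same. Animals 13 and 16 were the 2 highest demophoon animals in 12 of the 23 loci (52.2%), beside 8.86% of the other 463 loci, where the most common pair was 13 and 15 with 29.4%. Among the 12 were MSTRG.13403, MSTRG.12856, MSTRG.4944, MSTRG.420, MSTRG.14849, MSTRG.8002, MSTRG.18782 and MSTRG.9312. The rule used the mean of these same animals, so loci that animals 13 and 16 lifted past the limits were favoured by the choice. The other 463 loci were not chosen in that way, and the shares are a description. At MSTRG.18782 in the main wing, for example, animals 13 and 16 had 17.4 and 17.7 CPM and animals 14 and 15 had 1.12 and 1.87 CPM. Summed over the 23 loci the level was 2751 CPM in animal 13 and 2679 CPM in animal 16, while animals 14 and 15 had 1435 and 1234 CPM. The cyrbia animals at 70% had 133 to 261 CPM, a gap that the rule set. The sums are weighted to loci with high CPM, such as MSTRG.4554, with 954 CPM in animal 16 and 170 CPM in animal 13. Animals 13 and 16 were both female, as was animal 14. The stage score was 2.94 in animal 13, 3.00 in animal 16, 2.91 in animal 14 and 3.08 in animal 15.

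An animal's own regions kept its deviation. Across the 23 loci, the deviation of an animal from its group mean in the main wing had a correlation with the same animal's deviation in the anterior hindwing of 0.96 to 0.99 in the 4 demophoon animals at 70% and 0.67 to 0.78 in the 4 cyrbia animals. The highest correlation with the other region of a different animal of the group was 0.19 in demophoon and 0.12 in cyrbia. Deviations from a mean of the same 4 animals cancel out at each locus. The correlations between different animals are therefore lowered by construction, and nothing is read from their gap to those within animals. These are correlations across loci, which are not independent, and the libraries of an animal share its RNA source and handling.

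Leaving out 1 animal at a time changed which loci met the limits. The limits were met by 7 loci whichever of the 16 animals was left out: MSTRG.21177, MSTRG.19216, MSTRG.13403, MSTRG.15543, MSTRG.19130, MSTRG.18782 and MSTRG.4554. Another 15 loci no longer met them without at least 1 of the demophoon animals at 70%. MSTRG.9312 was lost without cyrbia animal 11, because its cyrbia means then fell under 0.2 CPM in all groups. Its fold limits still held, so only the cyrbia minimum removed it. The total that met the limits was between 19 (without animal 12) and 27.

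**Figure D4:**
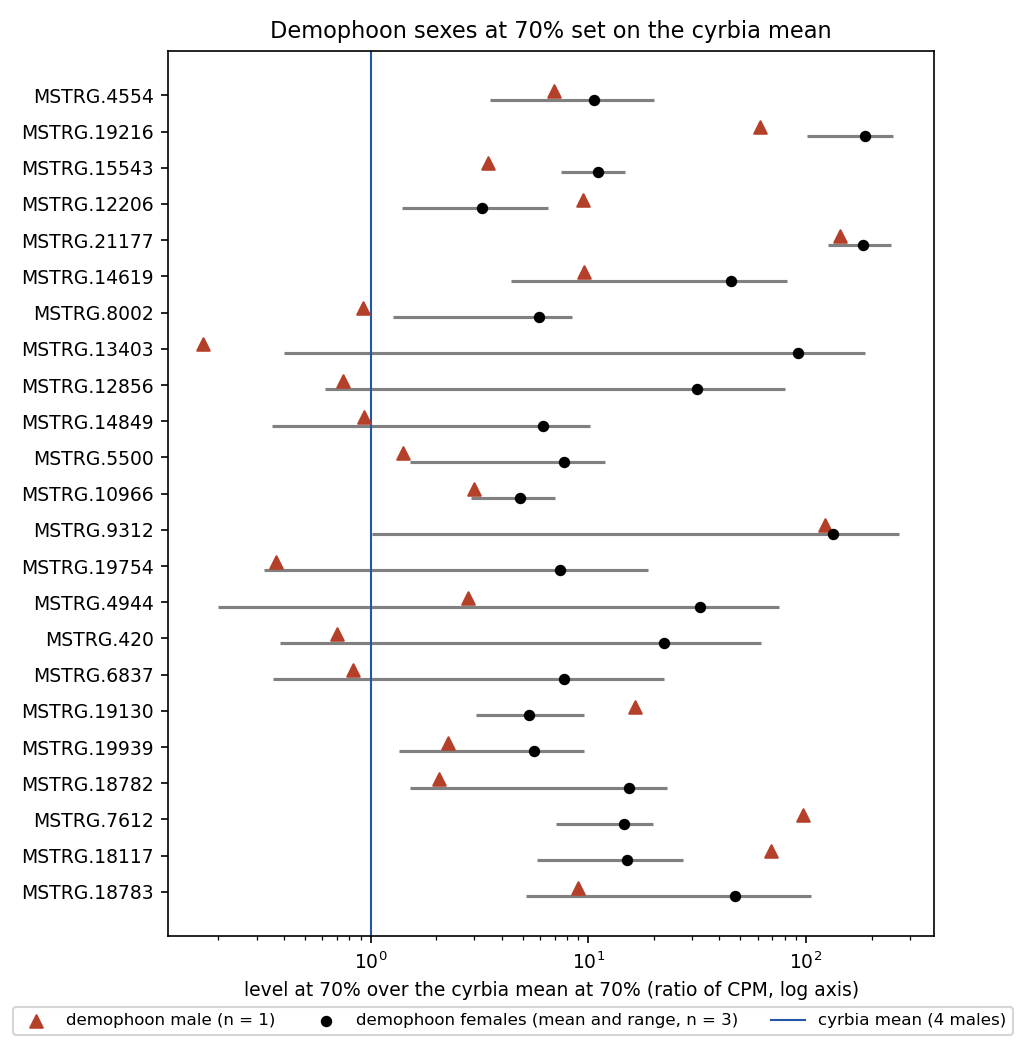
Demophoon levels at 70% divided by the cyrbia mean at 70% (ratio of CPM over both regions, log axis) for each of the 23 loci, with the 1 demophoon male as a red triangle above the mean (black point) and range (grey line) of the 3 females, and the mean of the 4 cyrbia males as the blue line at 1. The male lies below the blue line in 7 loci and to the right of all females in 4.

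Sex was uneven between the groups, and the single demophoon male at 70%, animal 15, is the only direct match to the 4 cyrbia males. He was above every cyrbia male in 15 of the 23 loci, at least 4 times the cyrbia mean in 10 and below it in 7. The median ratio to the cyrbia mean was 2.98 for the male and 14.7 for the mean of the 3 females. The rule set a demophoon mean mostly of females against a cyrbia mean of males. It therefore favours loci high in the females, and nothing is read from the gap between these ratios. Within demophoon the male was above all females in 4 loci (MSTRG.12206, MSTRG.19130, MSTRG.7612 and MSTRG.18117), below all in 5 and among them in 14. With the male alone in place of the demophoon mean at 70%, 32 loci met the limits, of which 8 were among the 23. One male gives no spread, and these values are a description.

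A test of sex was made over all groups, with group and sex as terms, in the 16 main wing libraries. These libraries also entered the rule, which favours loci high in the demophoon females at 70%. The test is therefore not independent of the choice of the 23 loci. By edgeR's quasi-likelihood test 0 of the 23 loci passed a false discovery rate (FDR) of 0.05 between males and females, and over all loci 2 of 15485 (0.0129%) passed. At an unadjusted p under 0.05 there was 1 of the 23, MSTRG.13403, beside 425 of the 15485 loci. Its log2 difference of male over female was −4.68 (SE 1.86, unadjusted p = 0.0248, FDR = 1.00 by edgeR). DESeq2 called 0 of the 23, beside 21 of all loci. It also had 1 of the 23 at an unadjusted p under 0.05, beside 735 of all loci. The median log2 difference over the 23 loci was 0.29, the range −4.68 to 1.47 and the median SE 1.01, so that differences of 2 times between the sexes were within the error at most of these loci. The cyrbia animals at 70% were of 1 sex and add nothing to this estimate.

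The last question was whether the loci differed between wing regions, which entered the rule through the same limits on both. Those limits leave out loci that are high in 1 region alone. The counts over the 23 loci are therefore not independent of the choice, and nothing is read from their gap to all loci. The test compared the main wing with the anterior hindwing within animals, with animal as a block, in 1 edgeR quasi-likelihood fit of all 32 libraries and 18276 loci. In demophoon at 70%, 0 of the 23 loci passed an FDR of 0.05, beside 67 of all loci (0.367%). At an unadjusted p under 0.05 there were 2, MSTRG.19754 and MSTRG.4554, beside 1891 of the 18276 loci. DESeq2 called 1, MSTRG.19754, beside 696 of all loci. In cyrbia at 70%, 0 of the 23 passed, beside 46 of all loci (0.252%). Of the 23, 6 had an unadjusted p under 0.05, beside 1887 of the 18276 loci. DESeq2 again called MSTRG.19754 alone, beside 463 of all loci.

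MSTRG.19754 had the smallest FDR in both subspecies. MSTRG.19754 was found at 2.07, 113, 3.06 and 25.2 CPM in the main wing of demophoon animals 13 to 16, against 8.02, 15.4, 3.61 and 2.11 CPM in cyrbia animals 9 to 12. In anterior hindwing, MSTRG.19754 was at 1.55, 96.1, 1.04 and 11.8 CPM in demophoon and 3.39, 8.15, 2.26 and 1.65 CPM in cyrbia. The main wing was the higher region in all 4 animals of each subspecies. The log2 difference of main wing over anterior hindwing was 0.84 (SE 0.23) in demophoon and 0.85 (SE 0.24) in cyrbia. The FDR was 0.128 and 0.172 in edgeR, and 0.0224 and 0.0426 in DESeq2.

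The other loci with an unadjusted p under 0.05 did not pass the FDR with either tool. In demophoon MSTRG.4554 had a log2 difference of 0.35 (SE 0.16), with an FDR of 0.459 by edgeR. In cyrbia the log2 differences were 1.29 (SE 0.36) for MSTRG.6837, 1.07 (SE 0.47) for MSTRG.18782, 0.89 (SE 0.35) for MSTRG.8002, −0.82 (SE 0.29) for MSTRG.14849 and −1.47 (SE 0.63) for MSTRG.7612, with edgeR FDR values between 0.212 and 0.438. Over the 23 loci the median log2 difference of the regions was 0.25 in demophoon, where it ran from −0.52 to 0.84, and −0.02 in cyrbia, where it ran from −1.47 to 1.29.

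**Figure D5:**
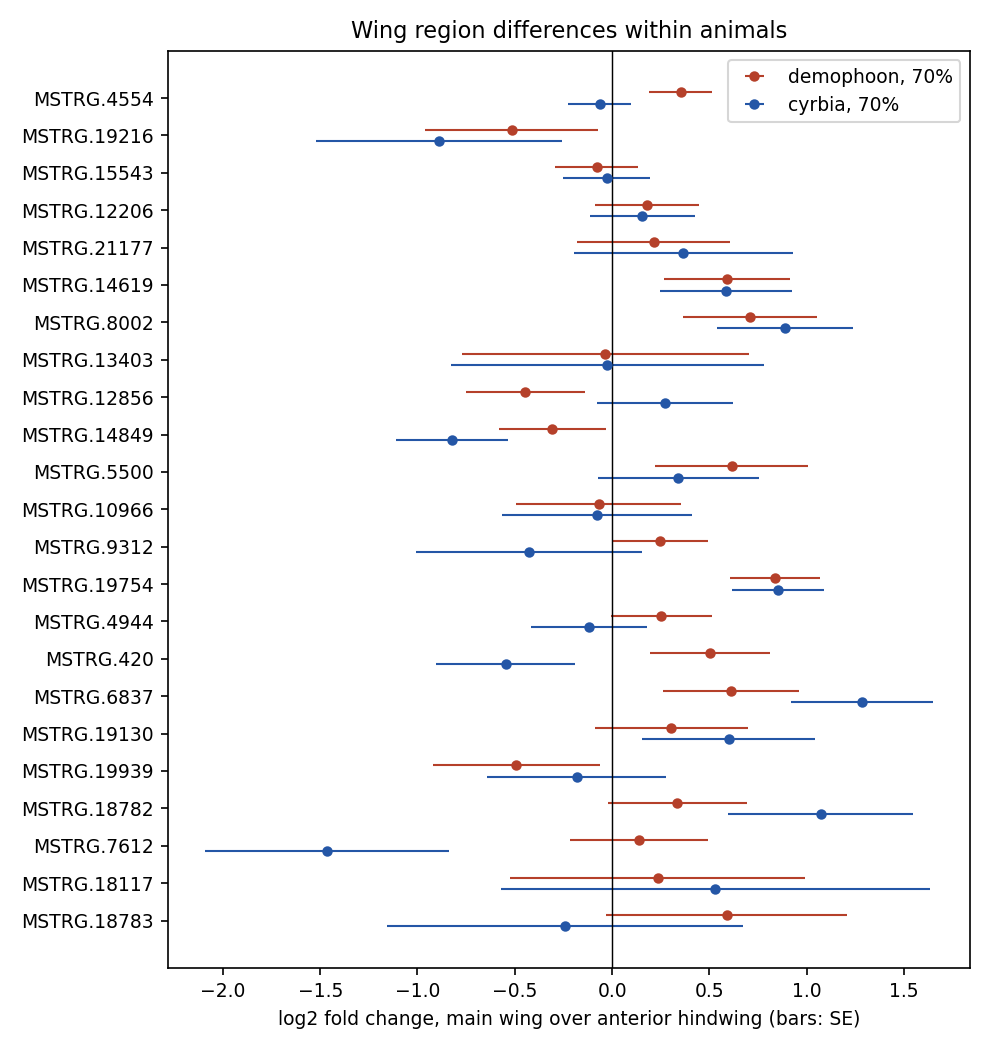
Log2 fold change of main wing over anterior hindwing at 70% for each of the 23 loci, with demophoon in red above cyrbia in blue. Bars are 1 SE, derived from the F statistic of the edgeR fit with animal as a block. No point passes an FDR of 0.05 in edgeR, and MSTRG.19754 has nearly the same value in demophoon, 0.84, and cyrbia, 0.85.

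The difference between the subspecies in the region difference was fitted as an interaction, and by edgeR 1 of all loci (0.00547%) passed an FDR of 0.05. It equals the difference between the regions in demophoon over cyrbia at 70%. The rule required at least 4 times in each region, so loci with a difference in 1 region alone had been left out, and the interaction of the 23 loci is described without a test. It was 1.61 (SE 0.72) on the log2 scale at MSTRG.7612 and 1.05 (SE 0.47) at MSTRG.420, and its SE had a median of 0.57 over the 23 loci. Nothing is read from these values about how even the subspecies difference was over the wing.

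The positions of the loci were read from the scaffold numbers in their gene model identifiers, whose leading digits name the chromosome. The 23 loci lay on 15 of 21 chromosomes. Chromosome 19 had 4 (MSTRG.19130, MSTRG.19216, MSTRG.19754 and MSTRG.19939), chromosome 18 had 3 (MSTRG.18117, MSTRG.18782 and MSTRG.18783), chromosomes 6, 13 and 15 had 2 each, and 10 chromosomes had 1. Chromosome 19 carried 6.07% of the annotated loci and chromosome 18 carried 4.63%. None of the 23 was on the Z chromosome, which carried 3.92% of the annotated loci, nor on chromosomes 2, 4, 5, 16 or 17. MSTRG.4944 has a gene model from a scaffold of chromosome 3. So had all 58 loci with a scaffold number within 60 places of it in number order, itself included. This run of numbers lies between MSTRG.4741 and MSTRG.5208, both of a chromosome 6 scaffold, so the place of the run is uncertain. Genome coordinates were not used here.

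MSTRG.18782 and MSTRG.18783 have consecutive locus numbers and consecutive gene model numbers on the same scaffold, and no other members lie within 5 numbers of each other. They did not share their pattern over animals. At 70% in the main wing MSTRG.18782 was highest in demophoon animals 13 and 16 with 17.4 and 17.7 CPM, whereas MSTRG.18783 was highest in animal 14 with 27.7 CPM, where MSTRG.18782 had 1.12 CPM. A locus merged from several gene models can mix their levels, which applies to MSTRG.8002 with 4 gene models, MSTRG.13403 and MSTRG.12856 with 3 each and MSTRG.420 with 2. The other 19 loci had 1 gene model each. The kit named in the labels does not mark strand, so reads from overlapping transcripts on opposite strands cannot be told apart.

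Of the loci with the next lower or higher number, a few had the same subspecies difference at 70%. The unannotated MSTRG.21176, next to MSTRG.21177, averaged 31.1 CPM in demophoon and 0.283 CPM in cyrbia at 70%. The unannotated MSTRG.19217, next to MSTRG.19216, averaged 6.46 against 0.00912 CPM, and the unannotated MSTRG.13404, next to MSTRG.13403, averaged 13.2 CPM in demophoon with no count in cyrbia. Whether these neighbours belong to the same transcripts as the 3 loci beside them was not tested. The annotated MSTRG.19131, next to MSTRG.19130, averaged 32.5 against 5.70 CPM at 70% but 34.5 against 50.4 CPM at 50%, so that its gap at 70% came with a lower cyrbia level at that stage and not with a higher demophoon level. The unannotated MSTRG.12205, next to MSTRG.12206, was the reverse at both stages, with 3.14 CPM in demophoon and 26.6 CPM in cyrbia at 70%, and 3.24 and 22.6 CPM at 50%.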

How the data were processed

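The counts deposited by the authors were whole numbers of reads for each locus in 32 libraries, not normalized. By the submitters' processing notes, reads were trimmed with Trimmomatic (v. 0.38), aligned with HISAT2 (v. 2.1.0), handled with SAMtools (v. 1.9) and assembled with StringTie (v. 1.3.5). The notes also name edgeR. The genome build and the strand setting were not given in the sources used here. A locus in which the assembly merged several gene models has a single count, and a transcript split over several loci has several.

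The 23 loci and all lists were chosen with earlier results of these data known. CPM used the column total. Tests were run in R (v. 4.3.3) with edgeR (v. 4.0.16; TMM factors, low counts removed by filterByExpr, quasi-likelihood test, Benjamini-Hochberg adjustment over all loci tested, FDR of 0.05) and limma (v. 3.58.1), after a check on simulated data. DESeq2 (v. 1.42.0), other scaling factors, no filter, other limits and leaving out each animal were alternatives, and a mean without the highest demophoon animal was added after the data were seen. Contrasts between subspecies and between stages were estimated in group-mean fits of 16 libraries a region and have no p-value. The region and sex tests also share libraries with the rule, so their p-values are not independent of the choice of loci. The SE of an edgeR estimate was derived as the absolute log2 estimate divided by the square root of its F statistic.

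Loci given in full by animal were the 10 highest in demophoon at 70%, and the 6 with the highest and the 6 with the lowest ratio of cyrbia 70% over 50% with 0.1 CPM added. Those nearest the limits, those called in a test and those within 5 numbers of each other were named too. MSTRG.19754 and MSTRG.18783 were given in full for their results. The labels give the animal shared by a main wing and an anterior hindwing library. Across the 23 loci, the deviations of an animal's libraries from their group means had correlations of 0.59 to 0.99, and no correlation with another animal of its group was above 0.39. Correlations with another animal are lowered by construction, because the deviations were taken from the mean of the same animals. Animal was a block in region tests because the labels pair the libraries. Every table column matched a sample (0 unmatched).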

Additional observations from a re-analysis of the deposited data

Results flagged for a closer look

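In 70 groups of 4 animals whose highest animal had at least 1 CPM, the gap of the highest or lowest animal to its nearest neighbour was set against the range of the group by Dixon's 95% limit. It was passed in 10 groups. Chance passes about 1 in 20 groups if values are independent and normally distributed. Here CPM was not transformed and the same animals recur over the loci, so that rate cannot be applied to the 70 groups. Demophoon at 70% held 5 of the 10, and the rule also favours loci with a single high animal there. Levels are the mean CPM of an animal's regions, and the 2 regions of each of these animals deviated in the same direction.

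In demophoon at 70%, 5 loci had 1 animal far above the others. Animal 16 had 64.0 CPM at MSTRG.6837, where the others had 1.02 to 2.39 CPM, and 66.9 CPM at MSTRG.420, where they had 0.412 to 4.62 CPM. Animal 13 had 211 CPM at MSTRG.12856, with the others at 1.63 to 34.6 CPM. Animal 14 had 104 CPM at MSTRG.19754, with the others at 1.81 to 18.5 CPM. The male, animal 15, had 22.9 CPM at MSTRG.7612, and the females had 1.67 to 4.65 CPM.

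In the groups at 50% and in cyrbia at 70%, 5 more stood out. At MSTRG.13403 in demophoon at 50%, animal 7 had 35.8 CPM and the others 0.160 to 0.658 CPM. At the same locus in cyrbia at 50%, animal 3 had 80.4 CPM and the others 0.799 to 12.9 CPM. Both are female. At MSTRG.15543 the male demophoon animal 8 had 19.4 CPM at 50% and the females 5.47 to 6.93 CPM. At MSTRG.4554 cyrbia animal 3 was low at 50%, with 2.99 CPM where the others had 8.04 to 8.39 CPM. At MSTRG.9312 cyrbia animal 11 had 1.01 CPM at 70% and the others 0 to 0.0145 CPM.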

How the results depend on the processing

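The number of loci that met the limits was 28 with TMM-adjusted totals, 21 with the median of the animals (14 of them among the 23), 34 with a limit of 3 times, 16 with 6 times, 18 with a minimum of 10 CPM and 32 with males only at 70%. Leaving out 1 animal gave 19 to 27. Without the highest demophoon animal of each locus, tested against the cyrbia limit only, 15 of the 23 remained. The estimated cyrbia stage difference changed sign with a sex term at MSTRG.13403 (to 0.84), MSTRG.10966 (to −0.42) and MSTRG.7612 (to −0.25), and in the anterior hindwing at MSTRG.4944 (to −0.30). At 50% the sign of demophoon over cyrbia changed in the anterior hindwing at MSTRG.10966 (to 0.04), MSTRG.15543 (to 0.11) and MSTRG.18117 (to 0.20).

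Among the 23 loci, DESeq2 called 1 in each subspecies' region contrast where edgeR called 0. Over all loci, calls of the demophoon region contrast were 123 with RLE factors, 696 with DESeq2, and 15 to 123 without 1 animal (15 without animal 14, 17 without 15, 123 without 16). Those of the cyrbia contrast were 88 with RLE factors, 463 with DESeq2 and 23 to 58 without 1 animal. The interaction had 34 with DESeq2 and 0 to 4 without 1 animal. The sex test had 21 with DESeq2, 0 in the anterior hindwing, 0 with regions summed and 1 to 5 without 1 animal. Without the replicate block of animals the region contrasts had 3 calls in demophoon and 4 in cyrbia, and the interaction had 0. The causes were not tested. Depth limits MSTRG.18783, MSTRG.7612, MSTRG.18117 and MSTRG.9312 in cyrbia, where most libraries held few counts.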

Other observations

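The 2 loci left out because cyrbia had almost no counts met the same demophoon limits as the 23. MSTRG.12538 had 43.9, 23.2, 11.8 and 15.9 CPM in the main wing of demophoon animals 13 to 16 at 70%, against 0, 0, 0.146 and 0.271 CPM in cyrbia animals 9 to 12. In anterior hindwing, MSTRG.12538 had 59.9, 54.5, 13.5 and 11.2 CPM in demophoon and 0, 0, 0 and 0 CPM in cyrbia. The highest demophoon animal was 13, and all demophoon libraries were above all cyrbia libraries. MSTRG.11813 had 5.63, 10.6, 12.0 and 7.19 CPM in the main wing of demophoon animals, against 0, 0.214, 0.255 and 0.135 CPM in cyrbia animals. In anterior hindwing, MSTRG.11813 had 6.14, 8.28, 4.63 and 4.12 CPM in demophoon and 0.0905, 0.230, 0 and 0 CPM in cyrbia. The CV among demophoon animals was 25.4% at MSTRG.11813 and 66.3% at MSTRG.12538. At 50% MSTRG.12538 had 0 to 0.161 CPM in the demophoon animals and 0 to 0.0442 CPM in the cyrbia animals, while MSTRG.11813 had 0.389 to 1.10 CPM in demophoon and 0.0546 to 0.174 CPM in cyrbia. Both have gene models on a scaffold of chromosome 12, as does MSTRG.12206.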
